A study of Mus musculus with 6 samples.

Results

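Dlx3, Vdr, Ebf1 and Hey1 encode transcription factors of the osteoblast lineage and of the marrow stroma, and these 4 genes were selected by symbol from the 1285 rows of the authors' deposited table. All 4 symbols were found there. The selection was made with their values in this comparison known, so the values are given as a description and no test of them was made. The cells were mouse bone marrow mesenchymal stem and progenitor cells (MSPCs), stromal cells that hold precursors of bone and fat and support blood stem cells. They came from Snai2-/- mice, which lack the zinc-finger repressor SNAI2 (Slug), and from control littermates, with 3 libraries in each group. All animals were adults of 8 weeks, and about 2000 cells went into each library. Both groups were sorted as Nes-GFP+, a reporter driven by nestin sequences, and as negative for CD45, Ter119 and CD31, the surface antigens of leukocytes, erythroid cells and endothelium. Whether each library came from 1 animal or from pooled animals, and the strain, sex and control genotype beyond the word control, were not stated in the labels.

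The transcription factors act at different points of the stromal lineages. DLX3 is a distal-less homeodomain protein of teeth, hair and bone that acts in differentiating osteoblasts and on the osteocalcin gene. VDR is the nuclear receptor for the active form of vitamin D; it pairs with a retinoid X receptor (RXR) on DNA, and in osteoblasts it acts on the genes of osteopontin, RANKL and the vitamin D hydroxylase CYP24A1. EBF1, early B cell factor, is needed for B lymphocyte development and is also made by the reticular stromal cells of marrow that secrete CXCL12. HEY1 is a basic helix-loop-helix repressor switched on by Notch receptors, and in osteoblasts also by bone morphogenetic proteins. SNAI2 itself binds E-boxes, the letters CANNTG and above all CAGGTG, and represses genes near them.

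The values are 1 mean per group on a scale normalized by the authors, with the authors' p and step-up false discovery rate (FDR). Values of single libraries were not analysed here, so no spread, sample by sample value or depth stands beside any mean, and whether the libraries of the groups overlap cannot be stated. Whether the scale corrects for gene length was not stated, so no order of expression between genes is drawn from it. Totals, sums and pairs of means that are set across genes below are values on this scale and not relative transcript numbers. The authors' deposited table lists only genes with an unadjusted p under 0.05, which were 1285 of 16718 genes tested, or 7.69%. Those higher in Snai2-/- MSPCs made up 3.77% of the genes tested and those lower 3.91%. The authors' deposited table gave 0 genes an FDR under 0.05, and Snai2 alone lay under 0.1, which is 0.00598% of the genes tested. Snai2 had a mean of 9.20 in Snai2-/- MSPCs against 636 in control MSPCs per the authors' deposited table.

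Dlx3, Vdr and Hey1 had higher means in Snai2-/- MSPCs and Ebf1 had a lower one. The differences ranged from 8.16-fold for Dlx3 to 1.51-fold for Hey1 per the authors' deposited table. None of the 4 passed an FDR of 0.05, and their listing at an unadjusted p under 0.05 is what made them selectable. In bulk RNA such as this, a change in the number of cells that make a transcript cannot be told apart from a change in transcript per cell.

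**Figure D1:**
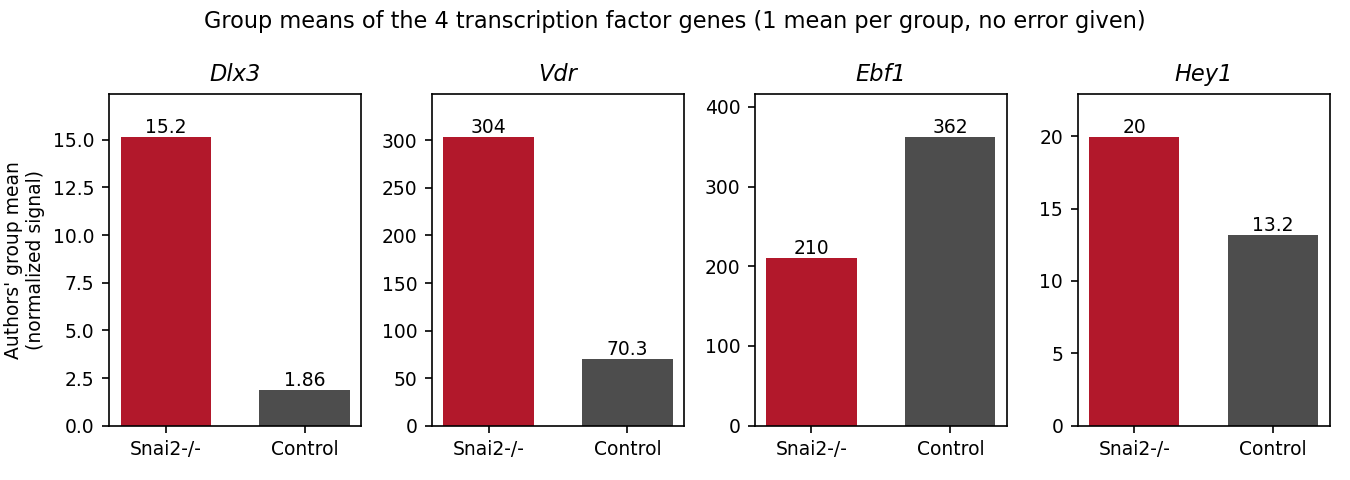
The authors' mean of each group (bars from 0, normalized signal, Snai2-/- left in red and control right in grey) for Dlx3, Vdr, Ebf1 and Hey1, each on its own vertical axis and without error bars because 1 mean per group was used. The Snai2-/- bar is the taller for Dlx3 (15.2 against 1.86), Vdr (303.7 against 70.3) and Hey1 (19.96 against 13.2), and the shorter for Ebf1 (210.3 against 362).

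Dlx3, the homeodomain gene, had a mean of 15.2 in Snai2-/- MSPCs and 1.86 in control MSPCs per the authors' deposited table. That is a ratio of 8.16, or 3.03 on the log2 scale, with an unadjusted p of 0.00883 and an FDR of 0.447 per the authors' deposited table. The control mean is close to the bottom of the scale, and adding 5 to both means lowers the log2 ratio to 1.56. Of the 631 genes listed as higher, 62 had a larger ratio than Dlx3. Folds grow as totals fall in this table, so Dlx3 was also set beside the 221 listed genes whose total lay within 1.5-fold of its own. Of these, 7 had a larger absolute log2 ratio, and the median over the 221 was 0.99.

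Vdr, the vitamin D receptor gene, had a mean of 303.7 in Snai2-/- MSPCs and 70.3 in control MSPCs per the authors' deposited table. The ratio was 4.32, a log2 ratio of 2.11, with an unadjusted p of 0.00552 and an FDR of 0.385 per the authors' deposited table. A pseudocount of 5 on both means gave a log2 ratio of 2.03. Of the 71 listed genes with a total within 1.5-fold of that of Vdr, 3 had a larger absolute log2 ratio, and the median over the 71 was 0.63.

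Ebf1, the stromal and B lineage factor, had a mean of 210.3 in Snai2-/- MSPCs and 362 in control MSPCs per the authors' deposited table. It was the 1 member of the set with the lower mean in Snai2-/- MSPCs, at a ratio of 0.58 (log2 ratio -0.79). With an unadjusted p of 0.00104 it ranked 55 by p, ahead of Vdr at 236, Dlx3 at 330 and Hey1 at 1091 of the 1285 rows of the authors' deposited table. Its FDR there was 0.316. The order by p was therefore not the order by size, since 767 listed genes had a larger absolute log2 ratio than Ebf1. Among the 34 listed genes with a total within 1.5-fold of that of Ebf1, 10 did.

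Hey1, the Notch-responsive repressor gene, had a mean of 19.96 in Snai2-/- MSPCs and 13.2 in control MSPCs per the authors' deposited table. The ratio of 1.51 (log2 ratio 0.60) had an unadjusted p of 0.0405 and an FDR of 0.62 per the authors' deposited table, near the limit for being listed. Of the 261 listed genes with a total within 1.5-fold of that of Hey1, 188 had a larger absolute log2 ratio. Hey1 thus had the smallest absolute log2 ratio and the largest p of the 4 genes.

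**Figure D2:**
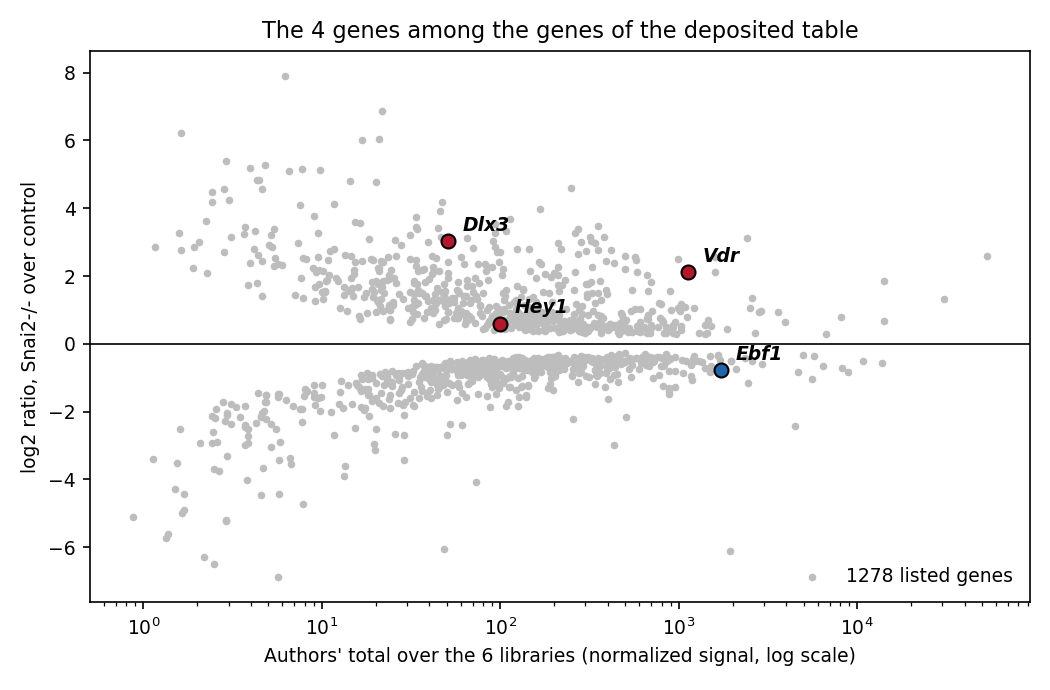
Log2 ratio of Snai2-/- over control (vertical) against the authors' total over the 6 libraries (horizontal, normalized signal, log scale) for the 1278 listed genes with both means above 0.0001 (grey points), with Dlx3, Vdr and Hey1 in red and Ebf1 in blue. Dlx3 at 3.03 and Vdr at 2.11 lie near the outer edge of the genes of like total, whereas Hey1 at 0.60 and Ebf1 at -0.79 lie among the bulk of them; the empty band around 0 comes from the limit on p.

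The genes lie apart from Snai2 in the genome. In the GENCODE M21 annotation of GRCm38, the assembly that mm10 denotes, Snai2 lies on chromosome 16 and 0 of the 4 lie there. Dlx3 occupies 95120119 to 95125296 of chromosome 11 on the plus strand, with 1 annotated transcript. Vdr occupies 97854425 to 97910630 of chromosome 15 on the minus strand, with 6 transcripts. Ebf1 spans 44617317 to 45008091 of chromosome 11 on the plus strand, 390.8 kb with 7 transcripts. Hey1 occupies 8663359 to 8667256 of chromosome 3 on the minus strand, with 4 transcripts. No 50-base stretch of their transcripts occurs in a transcript of any other annotated gene, 0 of 2558 for Dlx3, 0 of 5639 for Vdr, 0 of 9841 for Ebf1 and 0 of 3308 for Hey1, so family members such as Ebf3 or Hey2 do not share exact stretches of that length with them. The library chemistry does not mark the strand, but only Ebf1 has an overlapping annotated gene, the antisense gene Gm12158, which shares 0 exonic bases with it.

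Regions before annotated starts are shown because the letters SNAI2 is known to bind can be looked for in them. Only Vdr and Ebf1 are shown, since no window was available for Dlx3 or Hey1. The sequences are from RefSeq promoter windows of GRCm38.p6, which run from 250 bases before to 50 after a transcription start. RefSeq windows matched 2 of the 4 genes, Vdr with 1 window and Ebf1 with 2. Only bases before the start and outside annotated exons are printed, 5′ to 3′ on the strand of the gene, with E-boxes in capitals. The Vdr stretch is chr15:97908311-97908546 on the minus strand, 236 bases long, and lies before the RefSeq start but inside the annotated gene, since other Vdr transcripts start further upstream, and the Ebf1 stretch is chr11:44619978-44620227 on the plus strand, 250 bases in an intron of the longer transcripts, upstream of an internal start.
Vdr: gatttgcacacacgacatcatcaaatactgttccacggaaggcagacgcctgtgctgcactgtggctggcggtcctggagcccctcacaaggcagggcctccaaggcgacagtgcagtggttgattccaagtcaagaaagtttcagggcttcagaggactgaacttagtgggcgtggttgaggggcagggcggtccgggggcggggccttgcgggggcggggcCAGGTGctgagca
Ebf1: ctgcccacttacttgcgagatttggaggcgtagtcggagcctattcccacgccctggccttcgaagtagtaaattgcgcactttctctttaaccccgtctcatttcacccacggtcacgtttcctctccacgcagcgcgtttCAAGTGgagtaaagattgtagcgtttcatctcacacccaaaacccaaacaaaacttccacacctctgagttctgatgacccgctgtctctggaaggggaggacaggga

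The Vdr window held 1 CAGGTG, which begins 27 bases before the RefSeq start, and this was its only E-box. The same letters, on either strand, occur in 20.2% of the 32851 promoter windows of the RefSeq table, so a match is common. Neither Ebf1 window held CAGGTG. The internal Ebf1 window held 2 E-boxes of the general form CANNTG, 1 beginning 108 bases before the start, in capitals above, and 1 just after it; that form, which includes CAGGTG, occurs in 72.3% of windows. The other Ebf1 window lies wholly in an annotated untranslated part of the first exon and held no E-box.

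The remaining motifs searched were those of the factors themselves and of the Notch partner RBPJ. TAATT, a core that homeodomain proteins such as DLX3 can bind, occurred 1 time in the first-exon Ebf1 window and in 27.0% of all windows. GTGGGAA, the core bound by the Notch partner RBPJ, occurred 1 time on the opposite strand in the internal Ebf1 window and in 6.38% of all windows. The EBF palindrome, TCCC and GGGA set 2 bases apart (0.904% of windows), the E-box CACGTG that HEY proteins can bind (7.15%) and the direct repeat for VDR with RXR, AGGTCA repeated after 3 bases (0.00609%), were not found in the 3 windows. Both strands were read in each case. A match is a run of letters and not a measured binding site, and these windows leave out distant enhancers.

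Among osteoblast transcription factors, 5 of 26 were listed, 4 higher and 1 lower in Snai2-/- MSPCs, which is 19.2% of that list beside 7.69% of all genes tested. Dlx3, Vdr and Hey1 are 3 of those 4 and were chosen with their values known, so nothing is read from that share or from the median log2 ratio of 1.19, which is -0.36 over all 1285 listed genes. Without them 2 members were listed, 1 higher and 1 lower. The others were Mef2c, a MADS-box factor active in osteocytes (means of 78.8 against 34.5, ratio 2.28) per the authors' deposited table, and Alx4, a homeodomain gene of the skull and limb, for which that table gives means of 8.69 against 13.9 (ratio 0.624). Runx2 and Sp7, the factors that commit cells to the osteoblast fate, were on the list and not in the table, and neither were Dlx5, Dlx6, Msx1, Msx2, Atf4 and Twist1. A gene outside the table was either not tested or had too large a p to be listed, and these cases cannot be told apart.

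Among marrow stromal transcription factors 2 of 22 were listed, Ebf1 and Meis2, and both were lower (median log2 ratio -0.71). Meis2, a homeodomain gene of the TALE class, had means of 8.08 against 12.5 and a ratio of 0.644 per the authors' deposited table. Ebf2, Ebf3, Foxc1, Prrx1, Cebpa and Pparg, which are active in reticular, mesenchymal or fat precursors, were not listed. The 2 of 22 are 9.09% of that list, beside the 7.69% of all genes tested. Ebf1 was chosen with its values known, so nothing is read from that share or median. Without Ebf1, 1 member was listed. Of 20 genes that mark marrow stromal cells 2 were listed, again Ebf1 and also Angpt1, the ligand of the Tie2 receptor, whose means were 126.1 against 171.3 (ratio 0.736) per the authors' deposited table. The 2 are 10% of that list, near the 7.69% of all genes tested, and 1 was listed besides Ebf1. The niche factors Cxcl12 and Kitl, the leptin receptor gene Lepr and Nes were on that list and not in the table, so the labelled cell type could not be checked against their levels.

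The close relatives of the 4 genes were mostly absent from the table, as were most genes tested, of which 7.69% were listed. Of the 9 Dlx and Msx genes only Dlx3 (11.1%) was listed, and of the 4 Ebf genes only Ebf1 (25%), so 0 were listed in either family besides the chosen genes. Of the 12 Hes and Hey genes 2 (16.7%) were listed, Hey1 and Bhlhe41, both higher, and 1 was listed besides the chosen Hey1. Bhlhe41, a helix-loop-helix repressor of the circadian clock, had means of 4.82 against 2.21 and a ratio of 2.18 per the authors' deposited table. Of the 11 Snail family and E-box factor genes only Snai2, the gene that the mice lack, was listed (9.09%), so Snai1, Zeb1, Zeb2 and Twist1 were not. Nothing is read from counts in lists this small, and whether these relatives differ from the listed genes was not tested.

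Of the 41 nuclear receptor genes 6 were listed, 14.6% beside 7.69% of all genes tested, and Vdr was the only one of them with a higher mean in Snai2-/- MSPCs. Vdr was chosen with its values known, so nothing is read from that share. Without Vdr, 5 were listed, and all 5 were lower, where 3.91% of all genes tested were listed as lower. The list was chosen with earlier results of these data known, so nothing is read from that count. The glucocorticoid receptor gene Nr3c1 had means of 75.6 against 101.8 (ratio 0.743) per the authors' deposited table. Rarb, a retinoic acid receptor gene, had means of 2.81 against 14.6 and a ratio of 0.192 per the authors' deposited table. Nr6a1, an orphan receptor gene of germ cells, and Ppara, a fatty acid sensor gene, had ratios of 0.327 and 0.374 per the authors' deposited table, with means under 6 in each group. The median log2 ratio of the 6 was -1.04.

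Vitamin D partner and target genes were examined beside Vdr. Of 18 genes of vitamin D metabolism and receptor cofactors only Vdr itself was listed, so the RXR genes Rxra, Rxrb and Rxrg and the hydroxylase genes Cyp27b1 and Cyp24a1 were not. That 1 gene is 5.56% of the list, beside 7.69% of all genes tested, and 0 were listed besides Vdr. Of 14 vitamin D target genes 3 were listed and 3 were higher, with a median log2 ratio of 1.17. The 3 are 21.4% of the list, beside 7.69% of all genes tested and 3.77% listed as higher. The list was chosen with earlier results of these data known, so nothing is read from that share. Cdkn1a, an inhibitor of the cell cycle, had means of 237.9 against 105.5 and a ratio of 2.25 at an FDR of 0.324 per the authors' deposited table. Tnfsf11, the gene of the osteoclast factor RANKL, had means of 200.7 against 101.03 and a ratio of 1.99 per the authors' deposited table. Spp1, the osteopontin gene that the study's title names, had a ratio of 2.48 at an unadjusted p of 0.0498 per the authors' deposited table. The targets Bglap, Lrp5 and Enpp1 were not listed, and each listed target also answers to other regulators.

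Of 34 Notch pathway genes 2 were listed and both were higher, 5.88% of the list beside 7.69% of all genes tested. They were Hey1 and Psen2, a catalytic subunit of the gamma-secretase that cleaves Notch receptors. Hey1 was chosen with its values known, so nothing is read from that share, and without Hey1 1 gene was listed. Psen2 had means of 37.9 against 23.7 (ratio 1.60, unadjusted p of 0.00923) per the authors' deposited table. The receptor genes Notch1 to Notch4, the ligand genes Jag1 and Dll4, the nuclear partner Rbpj and the other targets Hes1, Hey2, Heyl and Nrarp were not listed.

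**Figure D3:**
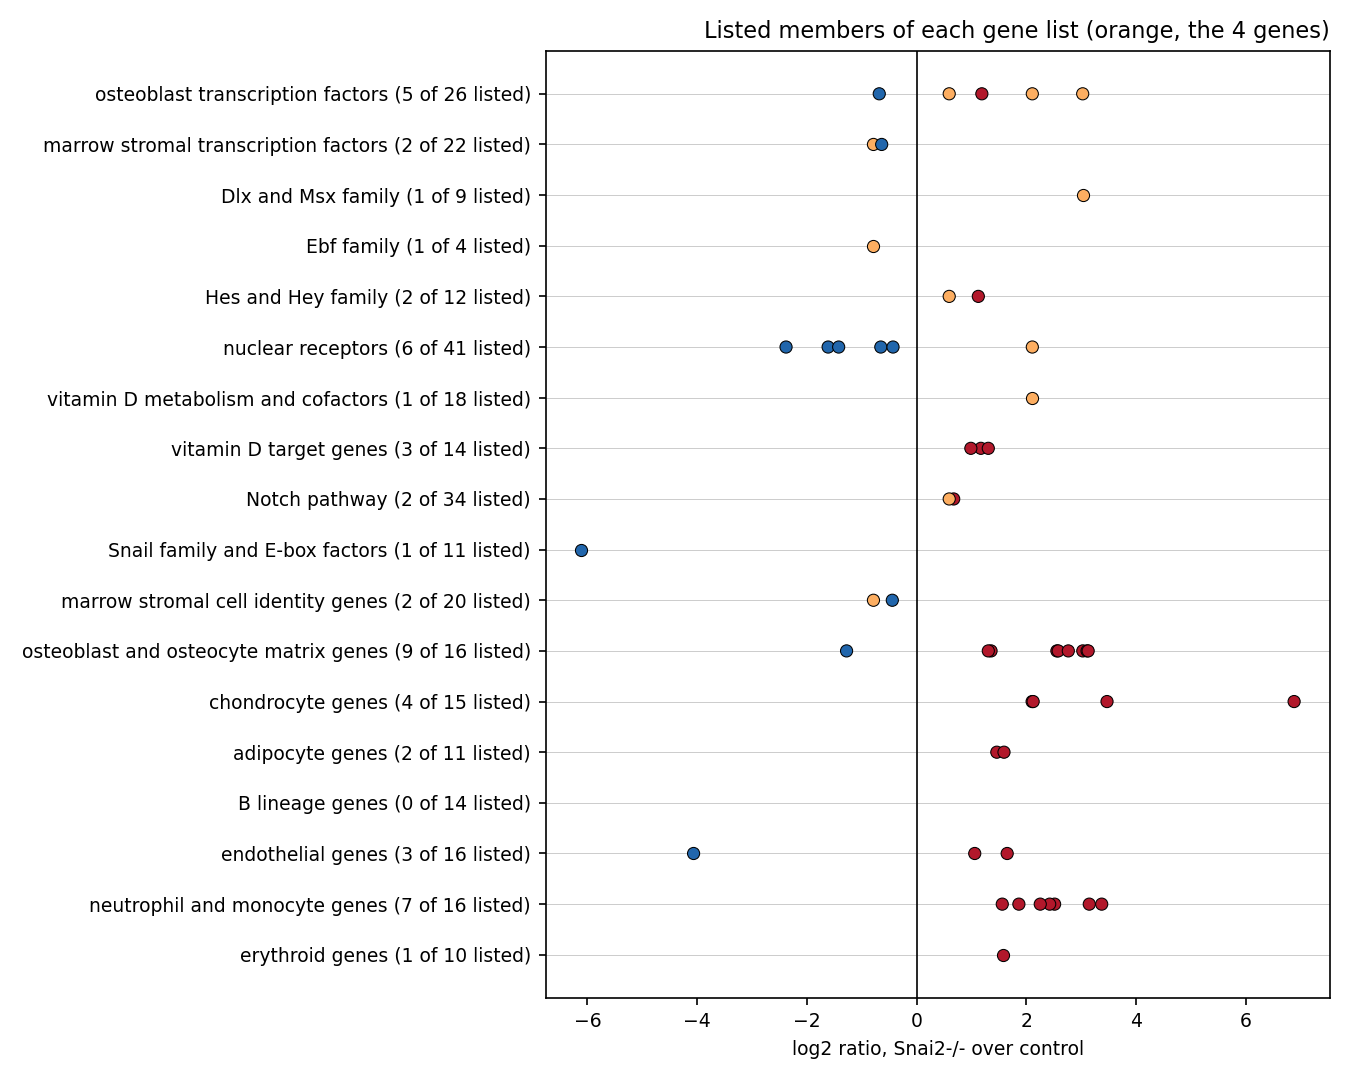
Log2 ratio of Snai2-/- over control for each listed member of the gene lists, 1 line per list, with the number listed of the number on the list; Dlx3, Vdr, Ebf1 and Hey1 are orange, other genes red where higher and blue where lower in Snai2-/- MSPCs. Vdr is the 1 point above 0 among 6 nuclear receptors, 8 of the 9 osteoblast matrix genes and 7 of 7 neutrophil and monocyte genes lie above 0, and the B lineage list is empty.

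Markers of cell types that could carry these factors were also listed, and their part in the values of the 4 genes was not tested. Of 16 osteoblast and osteocyte matrix genes 9 were listed, 8 higher and 1 lower, with log2 ratios from -1.28 for Phex to 3.13 for Phospho1. Nothing is read from the share listed, as the list was chosen with earlier results of these data known. The 9 are 56.2% of the list, beside 7.69% of all genes tested. Their means add up to 24152 in Snai2-/- MSPCs and 6054 in control MSPCs, sums made mostly of Col1a1 and Spp1. Without those 2 genes they add up to 1651 in Snai2-/- MSPCs and 577.5 in control MSPCs. Phex, a regulator of phosphate, went the other way, with 92.2 against 223.2 per the authors' deposited table. Dmp1, an osteocyte matrix gene, and Ifitm5, an osteoblast membrane gene, had ratios of 8.62 and 8.17 per the authors' deposited table. The osteocalcin gene Bglap, the sialoprotein gene Ibsp and Sost were not listed.

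Of 15 chondrocyte genes 4 (26.7%) were listed and 4 were higher, with log2 ratios from 2.11 to 6.88. Their means add up to 707 in Snai2-/- MSPCs and 146 in control MSPCs. Of 16 neutrophil and monocyte genes, which the CD45 gate selects against, 7 (43.8%) were listed and 7 were higher, with log2 ratios from 1.56 to 3.38. Those means add up to 820.1 in Snai2-/- MSPCs and 186.4 in control MSPCs. Of 11 adipocyte genes 2 (18.2%) were listed, Pnpla2 and Scd1, both higher, and of 10 erythroid genes 1 (10%), Car1, higher. The shares of these chondrocyte, neutrophil and monocyte, adipocyte and erythroid lists stand beside 7.69% of all genes tested, and 3.77% listed as higher. These lists were chosen with earlier results of these data known, so nothing is read from their shares. The erythroid share also lies near 7.69%. Some of these log2 ratios rest on control means near the bottom of the scale, where the lowest listed mean is 0.0001. Matn1, the source of the 6.88, had means of 7.13 against 0.0605 per the authors' deposited table. Ly6g had means of 0.931 against 0.105 per the authors' deposited table.

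EBF1 and HEY1 are also known in cell types that the gate removes, and those markers were read beside them. Of the 14 B lineage genes, chosen because EBF1 acts in B cells, 0 were listed, Cd79a and Pax5 among those absent. With 7.69% of all genes tested listed, a list of 14 would hold few, so nothing is read from the 0. Of the 16 endothelial genes, chosen because HEY1 acts in arteries, 3 (18.8%) were listed, 2 higher and 1 lower, beside 7.69% of all genes tested. This list too was chosen with earlier results of these data known, so nothing is read from its share. The arterial connexin gene Gja5 had means of 11.2 against 3.56 and the lymphatic receptor gene Flt4 means of 6.85 against 3.28 per the authors' deposited table. Vwf, the gene of von Willebrand factor, had means of 1.38 against 23.0 per the authors' deposited table.

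The neighbours of the 4 genes on their chromosomes were read from the same table. Of 22 protein-coding genes that start within 500 kb of the start of Dlx3, 2 were listed, 9.09% beside 7.69% of all genes tested. Col1a1, the gene of the main collagen of bone, starts 183.9 kb away and had a ratio of 5.99 per the authors' deposited table. Samd14 starts 110.2 kb away, between Col1a1 and Dlx3, and had a ratio of 0.516 per the authors' deposited table. The listed neighbours thus differed in direction, Col1a1 being higher and Samd14 lower in Snai2-/- MSPCs. Their share lies near the background, so these neighbours are described and not taken as a result. Dlx4, the paired family member beside Dlx3, was not listed.

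Of 20 protein-coding genes within 500 kb of the start of Vdr, 2 were listed and both were higher, 10% of them beside 7.69% of all genes tested and 3.77% listed as higher. These shares lie near the background, so the neighbours are described and not taken as a result. Tmem106c, 53.6 kb away, had a ratio of 1.92 and Slc48a1, a heme transporter gene 132.1 kb away, had a ratio of 1.67, both per the authors' deposited table. The cartilage collagen gene Col2a1, which also lies in this interval, was not listed. Of the 3 protein-coding genes within 500 kb of Ebf1, and of the 3 within 500 kb of Hey1, 0 were listed.

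**Figure D4:**
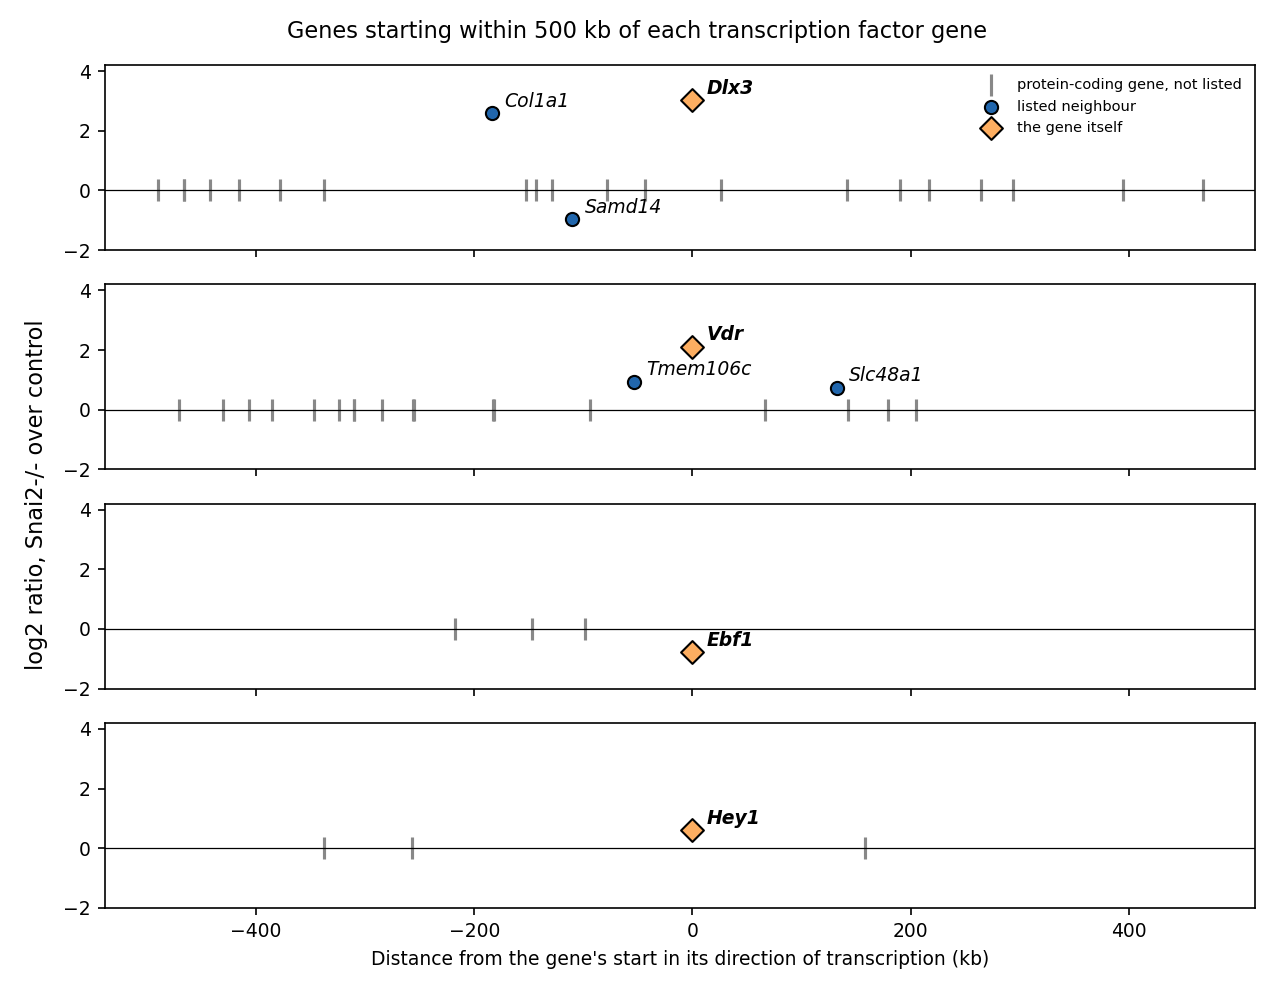
Genes that start within 500 kb of Dlx3, Vdr, Ebf1 and Hey1 (panels from top to bottom), by distance in kb in the direction of transcription (horizontal) and log2 ratio of Snai2-/- over control (vertical); diamonds are the 4 genes, circles are listed neighbours and grey ticks on the 0 line are protein-coding genes without a value in the table. Col1a1 (2.58) is the neighbour with the largest log2 ratio, and the Ebf1 and Hey1 panels hold no listed neighbour.

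The genes most like each of the 4 were taken as the 2 with the nearest pair of group means on the log2 scale, a likeness over 2 group means only. Predicted genes, Rik clones and ribosomal genes were left out of this search. For Dlx3 these were Plaur, the gene of the urokinase receptor, with means of 14.01 against 1.58, and Ffar2, a receptor gene for short-chain fatty acids, with means of 12.4 against 2.13, per the authors' deposited table. For Vdr they were the granulocyte genes S100a9, with means of 222.9 against 75.5, and Ngp, with means of 281.5 against 49.2, per the authors' deposited table. For Ebf1 they were Npc2, a lysosomal cholesterol carrier gene, with means of 235.8 against 329.2, and Olfml2a, with means of 194.8 against 308.1, per the authors' deposited table. For Hey1 they were the chemokine gene Ccl19, with means of 19.6 against 13.3, and Gnb5, a G protein subunit gene, with means of 19.8 against 13.7, per the authors' deposited table. Distances ran from 0.0269 for Ccl19 to 0.527 for Ngp, so among the genes searched Vdr had none as close to it as the others did.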

How the data were processed

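Sorted MSPCs gave RNA that was amplified by the SMART-Seq v4 kit before Nextera XT library preparation, per the labels' protocols; neither kit marks the strand. Per the submitters' processing notes, edgeR 3.12.0, HTSeq and Trim Galore were used with mm10, in roles not given there. The deposited table holds, per the file headers, for each gene a p-value, a step-up FDR, a ratio of mutant to wildtype, a signed fold change (a score, minus the reciprocal where below 1) and least-squares means, which the authors normalized in a way not given here (a signal). The mutant and wildtype columns were taken as Snai2-/- and control, the groups in the titles. The deposited total reads are also a normalized signal, since 0 of 1285 are whole and all equal 3 times the sum of both means within a relative 1e-06.

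The number of genes tested, 16718, was recovered from FDR, rank and p, and gave back the deposited FDR within 0.0225%. No model was fitted, because single library values were not in the table used here, so depth is unknown and the p-values may rest on partly technical spread. Log2 ratios, list counts, distances and motif matches were computed here with Python 3.11.15, numpy 2.4.6, pandas 2.3.3 and matplotlib 3.10.9. The 4 genes, the 18 lists and the rule for named genes (Snai2, listed members of the lists, the 2 nearest genes in both log2 means, listed neighbours within 500 kb) were chosen with earlier results of these data known. Members of lists named as not listed were picked by hand. Recovery of the number of tests and the motif search were tested on simulated data. A few members of the lists are counted but not reported here by name.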

Additional observations from a re-analysis of the deposited data

How the results depend on the processing

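Direction was kept by Dlx3, Vdr, Ebf1 and Hey1 with pseudocounts of 0.5, 1 and 5 on both means and after centring on the median of all listed genes (-0.36), which need not be the median of all genes tested. The same pseudocount on both means cannot reverse a direction. Centring on a negative median could have reversed only that of Ebf1, so for the other genes these settings test size and not direction. Log2 ratios ran from 1.56 to 3.38 for Dlx3, 2.03 to 2.47 for Vdr, -0.79 to -0.43 for Ebf1 and 0.45 to 0.95 for Hey1. None of the 4 passed an FDR of 0.05 or 0.1. An unadjusted p under 0.05 holds for every listed gene, so it admits Dlx3 (3.03), Vdr (2.11), Ebf1 (-0.79) and Hey1 (0.60) by construction. A limit of 0.01 admitted the same genes without Hey1. Nothing is read from the share listed over the 18 lists, which were chosen with earlier results of these data known. Of their 274 symbols 44 (16.1%) were listed, beside 7.69% of all genes tested, and the 44 include the 4 chosen genes. They were 32 higher and 12 lower, with 8 and 4 left at p under 0.01, where 365 of all 1285 listed genes were left. At an absolute log2 ratio of at least 1, 29 of the 32 higher and 6 of the 12 lower were left, and 590 of all 1285. GTGGGAA in the internal Ebf1 window was lost (0 sites) on the given strand alone. Counting genes and not windows, chosen after seeing the data, gave 22.6% with CAGGTG. No paired analysis was possible because the table gives 1 mean per group, and for the same reason left-out replicates, other normalizations and count models were not run, so whether 1 library decides a value is unknown.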
